A study of Mus musculus with 6 samples.

Results

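Imprinted growth-control genes were examined in sorted mouse Leydig cells, the androgen-producing cells of the testis. The members were taken by symbol from a set of 10 genes (Cdkn1c, Peg3, Igf2, H19, Dlk1, Meg3, Plagl1, Grb10, Mest and Igf2r). Of these, 8 had a row among the 10580 genes of the deposited table. H19 and Meg3, the long non-coding RNAs of the set, had none. RNA had been sequenced from 3 libraries of fetal Leydig cells (FLCs) at E18.5 and 3 libraries of adult Leydig cells (ALCs) at P100, all male and all carrying the Nr5a1 Tg genotype, in which green fluorescent protein follows the control region of Nr5a1, a gene of steroidogenic cells. The adult males and the fathers of the embryos were heterozygous for the transgene, and the embryos came from outbred CD-1 mothers. The cells with the strongest fluorescence were sorted, and fetal cells of separate sorts were pooled to obtain enough RNA.

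The level used for each gene is the authors' mean of normalized counts over all 6 libraries, in which FLCs and ALCs weigh equally. It carries no replicate spread, and values per library or per stage were not analysed here. No direction or size of a difference between FLCs and ALCs is therefore given, and a mean may come mainly from either stage. The table also holds only genes with an adjusted p below 0.05 in the authors' own comparison of FLCs with ALCs. Each percentile and listed median thus refers to those genes and not to all expressed genes. A gene without a row may be either expressed or silent in these cells. The share of all tested genes that have a row was not determined here. Counts of genes with a row are therefore not read as a trait of the members or of any list. Depth per library is unknown from the mean alone.

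In an imprinted gene, only the copy inherited from the mother or only the copy from the father is transcribed, because DNA methylation laid down in the egg or sperm marks a nearby control region. Many imprinted genes act on growth before birth, with paternally expressed genes tending to promote it and maternally expressed genes tending to restrain it. Several of them belong to a network of genes whose expression falls together in many tissues after birth. Of the members, Igf2, Dlk1, Peg3, Plagl1 and Mest are expressed from the paternal copy in most mouse tissues, and Cdkn1c, H19, Meg3, Grb10 and Igf2r from the maternal copy, with Grb10 switching to the paternal copy in neurons.

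The cell type was checked first. Of 7 Leydig cell markers, 6 had a row, with means from 87502 normalized counts for Star to 283675 for Cyp17a1. Lhcgr, the receptor of luteinizing hormone, had none. Of 19 marker symbols of 6 other testicular cell types, 9 had a row, the lowest being Cxcl2, a chemokine gene, with a mean of 11.6 normalized counts. Among these symbols, Emr1 and Adgre1 name the same gene, which had its row as Emr1. The summed means were 1171 for the immune, 226 for the Sertoli, 184 for the germ and 102 for the endothelial cell markers, and none of the 3 peritubular myoid markers had a row. Their part in the levels below was not tested, and in bulk RNA fewer cells of a type and less RNA per cell cannot be told apart.

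Cdkn1c had the highest level of the members. It encodes p57, an inhibitor of cyclin-dependent kinases that holds cells out of the cell cycle, and lies on chromosome 7 from 143458339 to 143461050 of GRCm38, on the minus strand. Its mean was 6612 normalized counts, rank 560 among the listed genes, which is above 94.7% of them. Its exons are short, 2039 bases in all, so per kilobase (kb) of exons its level rose to rank 254, with 3243 normalized counts per kb. That is 22.1 times the median per kb of all listed genes. The level of Cyp17a1, a steroidogenic enzyme gene and Leydig cell marker, was still 31.6 times that of Cdkn1c per kb.

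Peg3, a large zinc finger protein gene on chromosome 7 from 6703892 to 6730431 of GRCm38, minus strand, had a mean of 4632 normalized counts, above 91.2% of the listed genes. On this scale Peg3 and Cdkn1c differed by 1.43 times. Peg3 has 13324 exonic bases in GENCODE, however, and per kb its level was 348, or 2.37 times the listed median. Per kb of exons Cdkn1c was therefore 9.33 times as high as Peg3. From counts to counts per kb of exons, Peg3 fell by 20.8 percentage points, to above 70.4% of listed genes. This was the widest shift among the members between these scales. Per kb of the longest transcript, a scale added after the data were seen, Cdkn1c had 3478 and Peg3 533.

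The insulin-like growth factor genes came next. Igf2, the fetal growth factor, is on chromosome 7 from 142650766 to 142666816, minus strand, and had a mean of 5781 normalized counts and 1010.1 per kb. Igf2r, on chromosome 17 from 12682406 to 12769664, minus strand, encodes the receptor that carries IGF2 to the lysosome and so removes it. Its mean was 3256 normalized counts and 349.8 per kb. Growth factor and clearance receptor differed by 2.89 times per kb, with Igf2 higher. Igf2r and Peg3 stood side by side in the order per kb of exons, 1.01 times apart. Per kb of the longest transcript they were further apart, with 366 for Igf2r and 533 for Peg3.

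Grb10 encodes an adaptor that binds the insulin and insulin-like growth factor receptors and dampens their signal. It lies on chromosome 11 from 11930508 to 12038683, minus strand, and had a mean of 6292 normalized counts, the second highest of the members on the count scale. Per kb of exons it had 692, behind Igf2, which was 1.46 times higher. Per kb of the longest transcript this order was reversed, with 1243 for Grb10 and 1224 for Igf2. Cdkn1c, Igf2 and Grb10 were the 3 members above the upper quartile of listed genes per kb of exons, which was 427.

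Dlk1, Plagl1 and Mest had the lowest levels. Dlk1, on chromosome 12 from 109452823 to 109463336, plus strand, encodes a membrane protein of the Notch ligand family that holds back differentiation in fat and other cells. Its mean was 834 normalized counts and 147 per kb, so it lay at the listed median of 147 per kb. Plagl1, on chromosome 10 from 13060504 to 13131694, plus strand, encodes a zinc finger transcription factor that acts on other imprinted genes, and had 980 normalized counts and 125 per kb. Mest, on chromosome 6 from 30723547 to 30748465, plus strand, encodes a protein with a hydrolase fold, and had 332 normalized counts and 84.1 per kb. Mest was the 1 member below the listed median of 679 on the count scale, and Plagl1 joined it below the median per kb of exons. Per kb of the longest transcript Dlk1 was below the median too, at percentile 47.6.

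**Figure D1:**
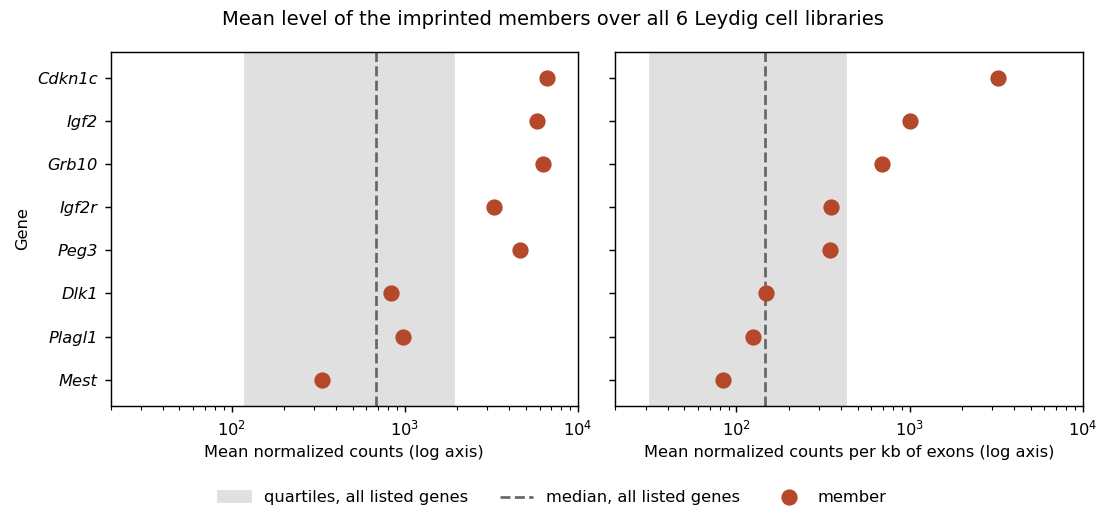
Mean level of the 8 listed members over all 6 libraries, as normalized counts (left) and as normalized counts per kb of exons (right), both on log axes, with the grey band between the quartiles and the dashed line at the median of all listed genes. On the left 5 members lie beyond the band, and on the right 3 do, with Cdkn1c at 3243 per kb and Mest at 84.1.

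Together, 7 of the 8 members were above the listed median by normalized counts and 5 above the upper quartile, where 50% and 25% of all listed genes lie by definition. Per kb the numbers were 6 and 3. The median of the members was 3944 normalized counts against 679 for all listed genes, and 348.7 against 147 per kb. The members spanned 19.9 times from Mest to Cdkn1c by normalized counts and 38.5 times per kb, and all 8 made up 0.129% of the summed means of the listed genes. Without a spread between libraries, neighbours in the order per kb of exons (Cdkn1c, Igf2, Grb10, Igf2r, Peg3, Dlk1, Plagl1, Mest) cannot be separated by a test. The order also depends on the length used. Per kb of the longest transcript Grb10 stood above Igf2, Peg3 above Igf2r and Plagl1 above Dlk1.

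Annotated neighbours share exons with some members, and the counting is not stated to use strand. The protein-coding gene Gm49394, which has no row, overlaps 3596 of the 5723 exonic bases of Igf2 on the same strand, or 62.8%. Copg2, transcribed towards Mest from the other side, shares 912 bases with it, 23.1% of the exonic bases of Mest, and had a mean of 2264. The antisense gene Gm44732 overlaps 625 bases of Cdkn1c, or 30.7%. These overlaps are those of GENCODE vM21, a later release than the authors name. Whether Gm49394 and Gm44732 were in the annotation used for counting is unknown. Where a neighbour was in it, reads on these stretches may have been assigned to either gene or dropped. The levels of Igf2, Mest and Cdkn1c are uncertain to that extent. No annotated gene shares exonic bases with Peg3, Dlk1, Grb10 or Igf2r, and Airn, the antisense RNA at Igf2r, shares no exonic base with it in GENCODE.

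Imprinted genes sit in clusters, so the levels of the genes around each member were compared, taking genes of a wider imprinted list within 1 Mb. These neighbours were chosen by position after values were seen. Igf2 and Cdkn1c lie in adjoining clusters on chromosome 7, with 792 kb between them. Around Cdkn1c, 4 of 12 imprinted neighbours had a row, and all 4 were lower per kb. Slc22a18, a transporter gene 12.7 kb away on the other strand, had 260 per kb, 12.5 times below Cdkn1c. Nap1l4, a histone chaperone gene, had 1065 per kb and Osbpl5, an oxysterol-binding protein gene, 608. Kcnq1ot1, the long RNA of the cluster's control region, and Phlda2, a placental growth gene, had no row.

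The neighbours of Peg3 were far lower. Usp29 starts 0.146 kb from the 5′ end of Peg3 and runs in the other direction. Its mean was 8.45 normalized counts and 0.467 per kb, against 348 per kb for Peg3, 744 times higher. Zim1, a zinc finger gene 7.44 kb beyond the 3′ end of Peg3, had 110 normalized counts and 13.6 per kb. Zim3 and Zfp264, further upstream of Peg3, had no row. The listed genes of the Peg3 cluster lay on both sides of the listed median of 147 per kb, with Peg3 alone above it.

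In the cluster on chromosome 12, Dlk1 was 14.4 times as high per kb as Rtl1, a retrotransposon-derived gene with 10.3 per kb, and 23.5 times as high as Begain with 6.27. A separate row under the symbol BEGAIN, with a mean of 11.8 normalized counts and no exonic length, did not enter this value. Meg3 begins 88.2 kb downstream of the start of Dlk1, and neither Meg3 nor Rian and Mirg, the non-coding RNAs that follow it, had a row. H19 begins 88.7 kb downstream of the start of Igf2 and is read from the other parental copy, under the same control region. With neither H19 nor Meg3 listed, the maternal RNAs of these clusters cannot be set beside Igf2 and Dlk1. Beside Grb10, Ddc, which makes dopamine and serotonin, had 18.5 per kb, 37.4 times below Grb10. Igf2 had 3 listed neighbours of 11, and was 3.88 times as high per kb as Slc22a18 but below Cdkn1c and, at 0.949 times its level, Nap1l4. Mest was also below a neighbour, and Copg2, a coat protein gene, had 442 per kb, 5.26 times the level of Mest. Igf2r had 3 neighbours in the list, Airn, Slc22a2 and Slc22a3, and none had a row.

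**Figure D2:**
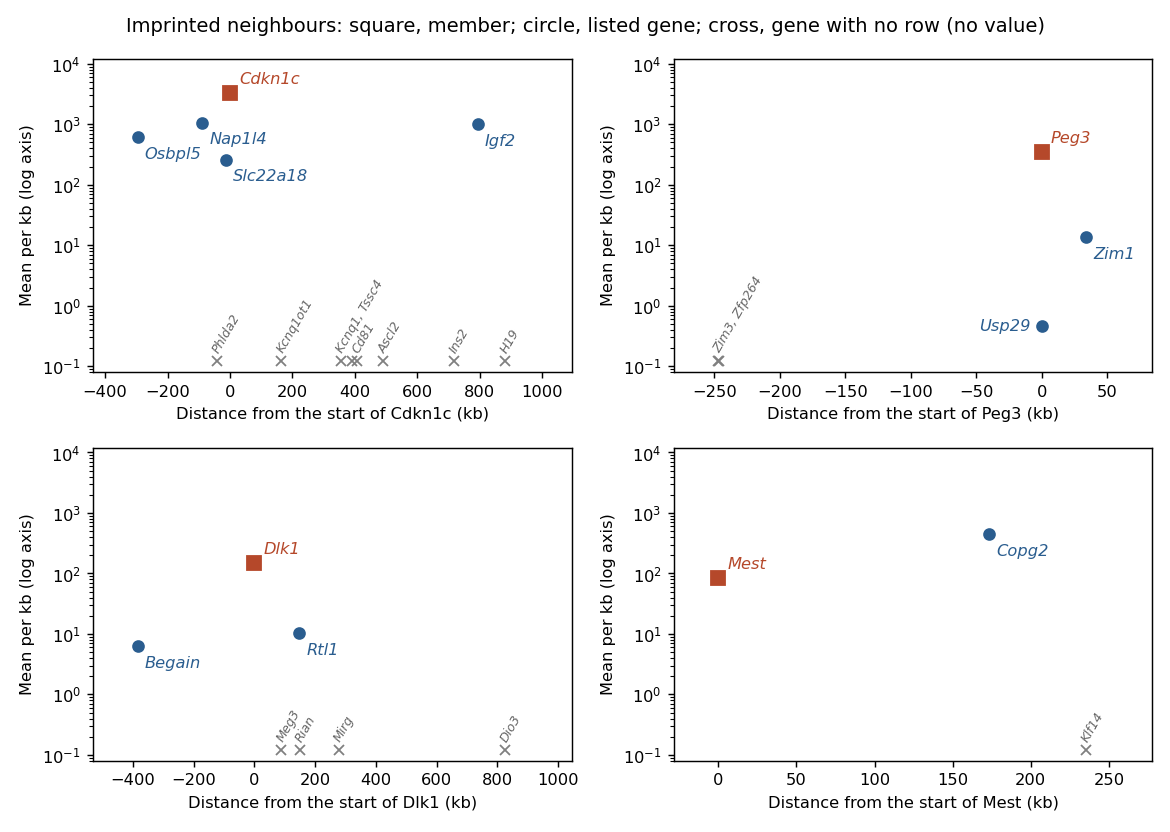
Mean normalized counts per kb of exons (log axis) of Cdkn1c, Peg3, Dlk1 and Mest and of imprinted genes within 1 Mb, by the distance between gene starts in kb, positive in the direction of the member's transcription. Squares are members and circles listed neighbours, and crosses at the foot are genes without a row, whose height is no value. Cdkn1c, Peg3 and Dlk1 lie above their listed neighbours, and Mest at 84.1 lies below Copg2 at 442.

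The methylation that marks imprinted genes falls on CpG dinucleotides, and these were counted in the promoters of the members. The promoters were not matched to the control regions that carry the inherited mark, and methylation was not measured. RefSeq windows on GRCm38.p6, from 250 bases before to 50 bases after a transcription start, were at hand for 8 of the 10 members, the exceptions being Cdkn1c and H19. Their 15 windows, of which a pair at Mest overlaps almost wholly, held from 1 to 45 CpG, against a median of 7 over all 32851 windows, and 12 of the 15 were above that median. Grb10 had the most, with 45 in its first window, a number that 1.93% of all windows reach. Igf2r had 34, Plagl1 26 and Peg3 13, the last reached by 37.9% of windows. Igf2 differed among its own starts, with 2, 14, 24 and 7 CpG from the most upstream start to the most downstream.

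The 250 bases upstream of the start are shown for Peg3, Plagl1 and Grb10, as examples of a moderate, a high and the highest CpG number, 5′ to 3′ with each CpG in capitals. They lie at chr7:6730420-6730669 (minus strand), chr10:13090582-13090831 (plus strand) and chr11:12037421-12037670 (minus strand), and hold 8, 19 and 40 CpG.
Peg3: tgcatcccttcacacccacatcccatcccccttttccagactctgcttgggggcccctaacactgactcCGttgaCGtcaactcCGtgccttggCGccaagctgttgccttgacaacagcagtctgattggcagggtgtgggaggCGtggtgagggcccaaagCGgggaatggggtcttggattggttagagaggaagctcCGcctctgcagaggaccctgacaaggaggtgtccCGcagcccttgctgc
Plagl1: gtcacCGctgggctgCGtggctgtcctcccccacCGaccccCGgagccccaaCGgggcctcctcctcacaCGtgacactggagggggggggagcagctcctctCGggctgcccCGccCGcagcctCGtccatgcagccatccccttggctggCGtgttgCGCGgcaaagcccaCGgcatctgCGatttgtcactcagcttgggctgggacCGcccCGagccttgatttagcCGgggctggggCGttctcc
Grb10: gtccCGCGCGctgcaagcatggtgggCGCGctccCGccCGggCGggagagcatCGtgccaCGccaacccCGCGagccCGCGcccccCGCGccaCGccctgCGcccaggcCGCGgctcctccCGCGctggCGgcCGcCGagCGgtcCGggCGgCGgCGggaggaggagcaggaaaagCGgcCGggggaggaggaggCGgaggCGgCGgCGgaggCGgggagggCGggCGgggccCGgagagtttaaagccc

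ZFP57, a zinc finger protein that keeps imprinted methylation through early development, binds methylated TGCCGC. This motif, which holds 1 CpG itself, was searched on both strands as TGCCGC or GCGGCA. It was found in 6 of the 15 member windows, with 1 each at Igf2, Meg3, Plagl1 and Grb10 and the overlapping pair at Mest, and in 11.6% of all promoter windows. In the Peg3 window these letters did not occur. A match describes the sequence and is not a measured binding site.

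Genes that act with the members were taken from fixed lists, and their levels are again means over both stages. Of 22 genes of the insulin-like growth factor axis, 13 had a row, with a median of 366 per kb, close to the 348.7 of the members. Akt1 and Akt2, kinases downstream of the receptors, had 3481 and 1220 per kb, and Igf2bp1, which binds Igf2 mRNA, had 22.4. Igf1r and Insr, the signalling receptors, had no row. Igf1, named here with its value known, had 36.6 per kb, so that Igf2 was 27.6 times as high. Among the binding proteins, Igfbp6, also named with its value known and known for a preference for IGF2, had 3169 per kb.

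Of 20 cell cycle inhibitors and their targets, 14 had a row, with a median of 84.5 per kb and 5 above the listed median. Ccnd3 and Cdk4, a cyclin and its kinase partner, had 1056 and 1548 per kb, and Cdkn2b, an inhibitor of CDK4, had 20.5. Cdkn1c belongs to a family with Cdkn1a, at 815 per kb, and Cdkn1b, at 319.7, the latter chosen after its value was seen. Per kb, Cdkn1c was 3.98 times as high as Cdkn1a and 10.1 times as high as Cdkn1b.

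Of 14 genes related to Dlk1, Grb10 or Plagl1, 10 had a row, with a median of 152 per kb. Grb14, the closest relative of Grb10, had 1048 per kb, 1.51 times the level of Grb10. Grb2, another adaptor, had 994, and Jag1, a Notch ligand, 608, while Jag2 had 8.11. Plagl2, named after its value was seen, had 2.71 times the level of Plagl1 per kb. Cdkn1c was the highest of its family per kb, while Grb10 and Plagl1 each had a relative at a higher level.

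**Figure D3:**
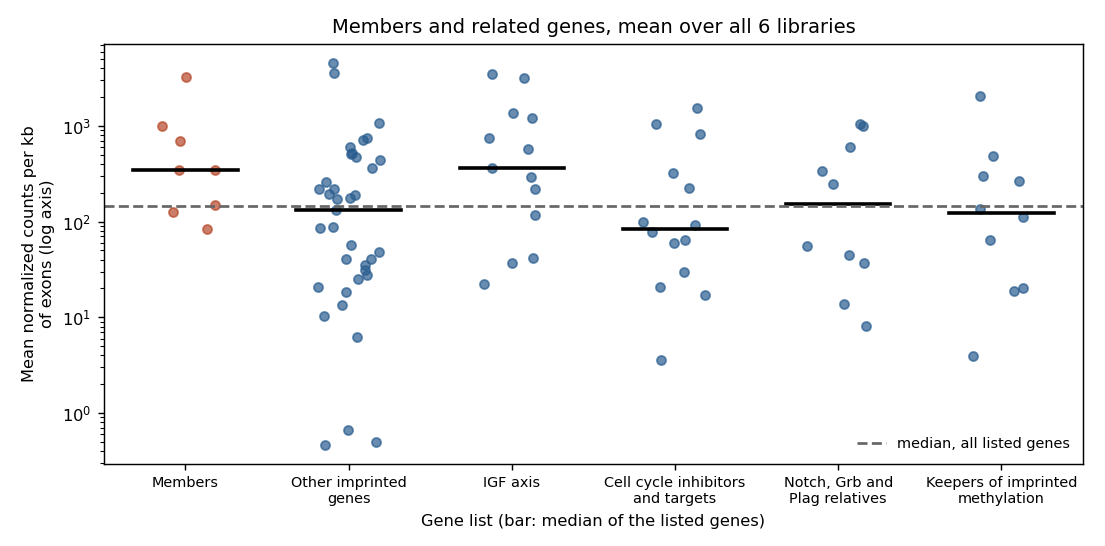
Mean normalized counts per kb of exons (log axis) for the 8 listed members and the listed genes of 5 related lists, with 1 point per gene, a bar at each list's median and a dashed line at the median of all listed genes. The bars of the members and of the insulin-like growth factor (IGF) axis lie at 348.7 and 366, above the dashed line at 147, and the bar of the cell cycle list lies below it at 84.5.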

How the data were processed

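RNA was extracted from sorted GFP-positive testis cells, 3 libraries per stage. Per the methods, the authors demultiplexed reads with Casava (version 1.8.2 in the submitters' processing notes), aligned these to GRCm38 with GemTools, obtained reads per gene from GENCODE annotation, dropped genes under 10 reads and applied DESeq2. A stranded total RNA kit is named in the methods and poly(A)+ RNA in the results. The deposited signal used here is the authors' average across the 6 libraries of size-factor-scaled counts. The other 5 columns of the table hold the authors' own comparison (fold change, standard error, statistic, p-value and adjusted p-value) and gave no result here; the last was read only to test that all 10580 rows are below 0.05. A sheet of library names and stages holds no measured value. Counts per library were not analysed here, so FLCs and ALCs were not compared and no test was run.

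Exonic lengths came from GENCODE vM21 (GRCm38), found by symbol for 10205 genes or older symbol for 298, and 77 had none; this release is later than the one the authors name. Levels per kb are the mean divided by the union of annotated exons. A percentile is the share of listed genes with a lower value. Promoter windows are those of RefSeq. Steps ran in Python 3.11.15 with pandas 2.3.3, after ranking and exon union were tested on simulated data. The members and lists were chosen with earlier results of these data known. The rule named all members, and of each list the 3 genes with the highest mean and the lowest, and some items are not reported here. Alternatives were a minimum mean of 10, levels per kb of exons or of the longest transcript, genes with a RefSeq protein, and members left out.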

Additional observations from a re-analysis of the deposited data

How the results depend on the processing

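The median percentile of the 8 members was 88.5 by normalized counts. It was 70.5 per kb of exons and 69.0 per kb of the longest transcript, a scale added after the data were seen. Without Cdkn1c, the member with the highest mean, it was 85.9, and without Cdkn1c and Peg3 it was 72.0. With genes of a mean of at least 10, or with genes that have a RefSeq protein, it stayed within the exact 95% binomial interval. The RefSeq setting was added later in place of a protein table that was not used here. The interval treats the listed genes as random draws. It covers neither the spread between libraries nor that between members, so moving beyond it is a description and not a test. Across these settings Peg3 ranged from percentile 70.4 to 91.2, Igf2r from 64.5 to 85.9, Plagl1 from 46.7 to 58.1 and Cdkn1c from 94.5 to 97.6. The minimum mean of 10 moved 4 of the 8 members beyond their own intervals (Dlk1 to 52.4, Plagl1 to 56.1, Mest to 34.8 and Igf2r to 85.2), and both scales per kb moved all 8. The number of members above the median was 7 by counts and 6 per kb of exons. Older symbols added neither a member nor an imprinted gene to those with a row. The table holds 1 mean per gene, so no replicate could be left out and no pseudocount was needed. No paired analysis was possible because values per library were not analysed here.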

Other observations

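Beyond the members, 37 of 60 other imprinted genes had a row in the deposited table, with a median of 131 normalized counts per kb of exons and 18 of them above the listed median of 147. Gnas, which encodes the stimulatory G protein that couples hormone receptors to cyclic AMP, had 3582 per kb, and Smoc1, a matrix protein gene imprinted in some tissues, 4546. H13, a signal peptide peptidase gene, had 514. Calcr, the calcitonin receptor gene, had 0.670, from a mean of 2.62 normalized counts. Only Gnas and Smoc1 of these 37 stood above Cdkn1c, at 3243 per kb.

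Of 13 genes that keep or change imprinted methylation, 10 had a row, with a median of 123 per kb and 4 above the listed median of 147. Zfp57, named with its value known, had 111 per kb. Trim28, the corepressor that ZFP57 recruits, had 2067 per kb, Ctcf, which insulates Igf2 from its enhancers on the maternal copy, 484, and Dnmt3a, a methyltransferase, 302. Dnmt3l, a cofactor of methylation in germ cells, had 3.93, from a mean of 11.7 normalized counts. Ctcfl, Tet2 and Dppa3 had no row. The levels are means over FLCs and ALCs, and no relation between these genes and the members was tested.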
